A study of Mus musculus with 35 samples.

Results

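The genes described here encode proteins of the mitochondrial ribosome. They were the genes with at least 1 probe set whose only annotated symbol starts with Mrpl or Mrps followed by a digit, and each gene was read from its probe set of highest mean over the 35 arrays. This gave 74 genes of the 12393 genes measured, 47 of the large subunit (Mrpl) and 27 of the small subunit (Mrps). All 74 symbols were found in RefSeq. The rule used symbols and mean levels only, and no difference between groups, but it was set with earlier results of these data known. The 3 probe sets that carry a second symbol (for Mrpl30, Mrpl53 and 1 of those for Mrps34) were left out.

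The study profiled lymphoid tumours of mice and sorted normal B cells on Affymetrix Mouse 430A2 arrays. The tumours came from dual-transgenic Bcl6/Myc mice (titled Myc/Bcl6, 3 arrays), from Bcl6 knock-in mice (titled Bcl6 Trans, 4 arrays) and from mice that lack both Lig4 and p53 (titled Lig4/P53 KO, 6 arrays). The normal cells were wild type. They were bone marrow pro-B cells (B220-positive, CD43-high, IgM-negative; 3 arrays, 2 of strain 129 and 1 of strain B6), bone marrow pre-B cells (B220-positive, CD43-low, IgM-negative; 3 arrays, strain 129), splenic transitional B cells (B220-positive, Cd93-positive; 4 arrays, strain 129), splenic germinal centre B cells (B220-positive, PNA-high; 5 arrays, strain B6), splenic plasmablasts (B220-positive, Cd138-positive, Cd93-negative; 4 arrays, strain B6) and bone marrow plasma cells (B220-low and Cd138-positive, without Cd93; 3 arrays, strain B6). The labels give no ages and no promoter for the transgenes, and do not say whether arrays came from separate mice or from pools, so a p-value measures only the spread between these arrays. All values are log2 probe set intensities as deposited.

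Mitochondria make a small set of respiratory chain and ATP synthase subunits from their own DNA, on ribosomes of their own. The ribosomal RNAs are transcribed inside the organelle, while every protein of the mitochondrial ribosome is encoded in the nucleus, translated in the cytosol and imported. The large subunit forms the peptide bond and holds the exit tunnel, and the small subunit binds the mRNA and decodes it. Symbol and position do not always match: Mrps18a and Mrps30 sit in the large subunit of the assembled particle, and Mrps36 is now counted as a component of the 2-oxoglutarate dehydrogenase complex. B cells enlarge and divide as large pre-B cells and in the germinal centre, and plasma cells secrete antibody at a high rate.

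Some arrays stood apart or went against their labels. Pro-B array 1, pre-B array 2 and Bcl6 Trans array 2 had the narrowest spread of intensities (interquartile range 2.09, 2.03 and 2.15), Myc/Bcl6 array 3 came next with 2.33, and all other arrays lay between 2.63 and 4.23. The 3'/5' gap, the mean log2 intensity of the 3' control probe sets of Actb and Gapdh minus that of the 5' ones, was 2.25 to 4.69 in the tumours and 4.59, 4.46 and 0.45 in the plasma cells, against 0.68 to 2.95 in the other sorted cells. The 18S control probe sets averaged 4.02 to 7.38 in the same arrays, against 10.04 to 11.28 in the other sorted cells. Myc averaged 5.15 ± 0.24 in the tumours labelled Myc/Bcl6 (SD, n = 3), lower than in every other group, and Bcl6 averaged 6.68 ± 2.46 in those tumours and 7.17 ± 0.97 in Bcl6 Trans tumours, against 11.22 ± 0.36 in germinal centre B cells (SD, n = 3, 4 and 5). Sdc1, which encodes Cd138, averaged 4.73 ± 0.92 in the arrays labelled plasma cell, against 8.75 ± 2.23 in plasmablasts (SD, n = 3 and 4). Cd79a, a B-cell receptor subunit, was 6.57 ± 1.02 in Myc/Bcl6 and 6.96 ± 0.18 in Bcl6 Trans tumours and 10.18 or more in every other group mean. Cd79b was also lowest there, at 7.80 ± 0.17 and 8.63 ± 0.75 (SD). Of 9 B-cell genes measured, 7 fell and 1 rose in Myc/Bcl6 tumours against germinal centre B cells (limma, adjusted p under 0.05). In Bcl6 Trans tumours 5 fell and 1 rose. Ms4a1, at 9.11 ± 4.09 and 9.64 ± 1.30, lay within the range of the other group means (SD). Its Myc/Bcl6 arrays ran from 4.39 to 11.56. Pax5, at 4.95 ± 0.06 and 4.76 ± 1.02, was higher than in germinal centre B cells (3.64 ± 0.36, SD). All its group means were dim, from 3.30 in plasma cells to 4.95. The median over all genes averaged 5.20 or more in every group, so this is a difference between low values. Lig4 and the p53 gene were not analysed here. In bulk RNA, fewer cells of a type and less RNA per cell cannot be told apart.

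Across the 9 groups the medians of both subunits were highest in plasma cells and Lig4/P53 KO tumours and lowest in the other tumours. Among the normal stages the lowest mean was that of pro-B cells for the large and that of pre-B cells for the small subunit. The median of the 47 large subunit genes, taken per array, averaged 7.06 ± 0.64 in Myc/Bcl6 tumours, 7.13 ± 0.46 in Bcl6 Trans tumours and 8.23 ± 0.33 in Lig4/P53 KO tumours (SD, n = 3, 4 and 6). In the normal stages it averaged 7.25 ± 1.33 in pro-B, 7.66 ± 0.55 in pre-B, 7.53 ± 0.15 in transitional, 7.84 ± 0.29 in germinal centre B cells, 7.72 ± 0.15 in plasmablasts and 8.38 ± 0.12 in plasma cells (SD, n = 3, 3, 4, 5, 4 and 3). The 27 small subunit genes had 7.21 ± 0.84 in Myc/Bcl6, 7.25 ± 0.70 in Bcl6 Trans and 8.35 ± 0.23 in Lig4/P53 KO tumours (SD, n = 3, 4 and 6). Their medians in the same order of stages were 7.72 ± 1.08, 7.49 ± 1.06, 7.83 ± 0.28, 7.78 ± 0.29, 7.92 ± 0.27 and 8.68 ± 0.23 (SD). The large subunit medians of the 3 plasma cell arrays, 8.26 to 8.49, lay above those of every other normal array. Their small subunit medians, 8.48 to 8.93, did not, since pro-B array 2 had 8.52. The low mean and the SD of pro-B cells rest on 1 array, since the medians over all 74 genes were 5.82, 8.25 and 8.06 in pro-B arrays 1, 2 and 3. Likewise the small subunit median of pre-B array 2 was 6.28, against 7.97 and 8.23 in pre-B arrays 1 and 3.

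**Figure D1:**
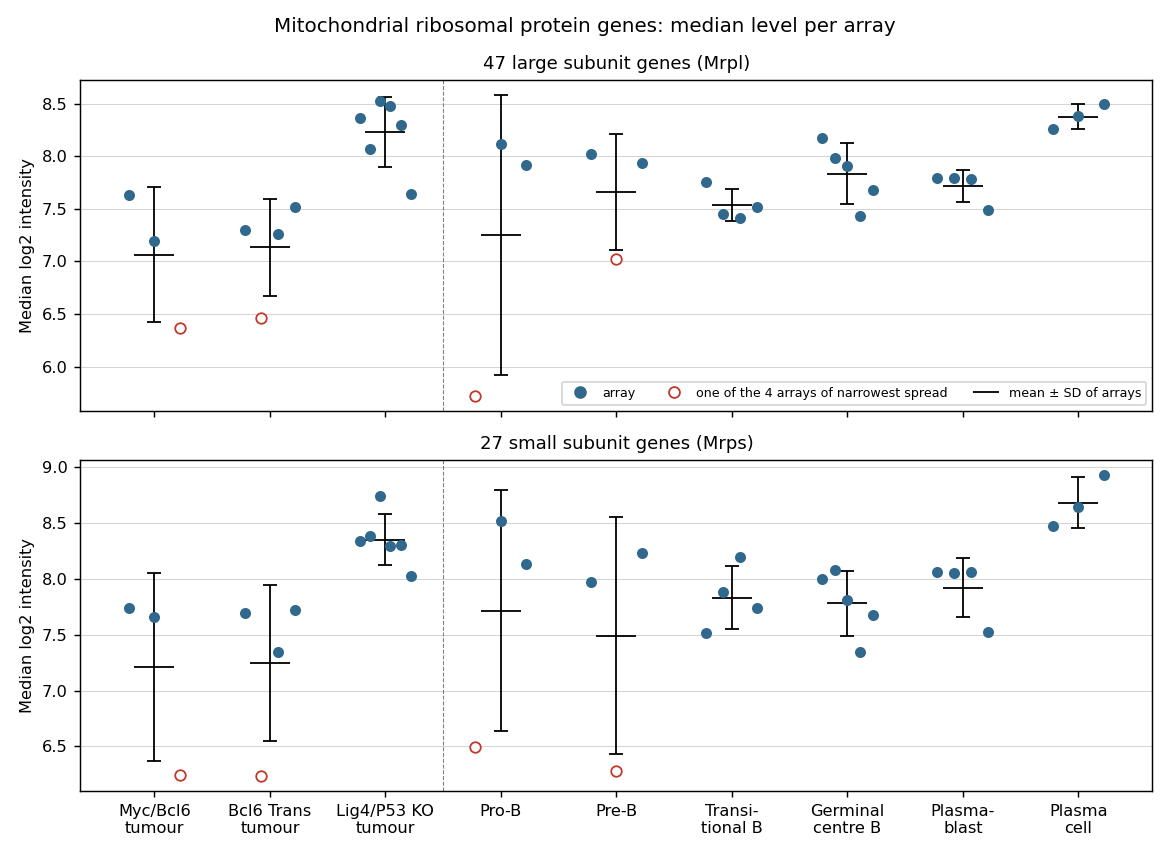
Median log2 intensity of the 47 large subunit genes (top) and the 27 small subunit genes (bottom) in each of the 35 arrays, by group; bars give the mean ± SD of the arrays. Plasma cells and Lig4/P53 KO tumours have the highest group means, and the open points, the 4 arrays of narrowest spread, are the lowest array of their group in both panels.

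The highest of the 9 group means was in plasma cells for 27 of the 74 genes (36.49%, against 15.7% of all genes) and in Lig4/P53 KO tumours for 24 (32.43%, against 12.26%). The lowest was in Myc/Bcl6 tumours for 25 (33.78%, against 20.27%), in pro-B cells for 17 (22.97%, against 9.32%) and in Bcl6 Trans tumours for 13 (17.57%, against 6.2%), and in plasma cells or Lig4/P53 KO tumours for 0. Plasma cells held the highest mean of 17 of 47 large and 10 of 27 small subunit genes, whereas pro-B cells held the lowest mean of 14 of 47 large (29.79%) and 3 of 27 small subunit genes (11.11%). Among the 6 normal stages alone, 44 of 74 genes (59.46%, against 26.14% of all genes) were highest in plasma cells and 27 (36.49%, against 16.03%) lowest in pro-B cells. All counts of lowest means in pro-B cells include pro-B array 1, of narrow spread, and were not repeated without it. Its large subunit median was 5.72, against 8.12 and 7.92 in pro-B arrays 2 and 3. Over the 9 groups, 52 of 74 genes varied at an adjusted p under 0.05 in limma's F-test (Benjamini-Hochberg over all genes), beside 71.3% of all genes, and over the 6 normal stages 14 of 74 did, beside 32.5% of all genes. The large subunit held 35 of the 52 and 11 of the 14 genes. The range of group means had a median of 2.02 over the members and 1.88 over all genes.

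**Figure D2:**
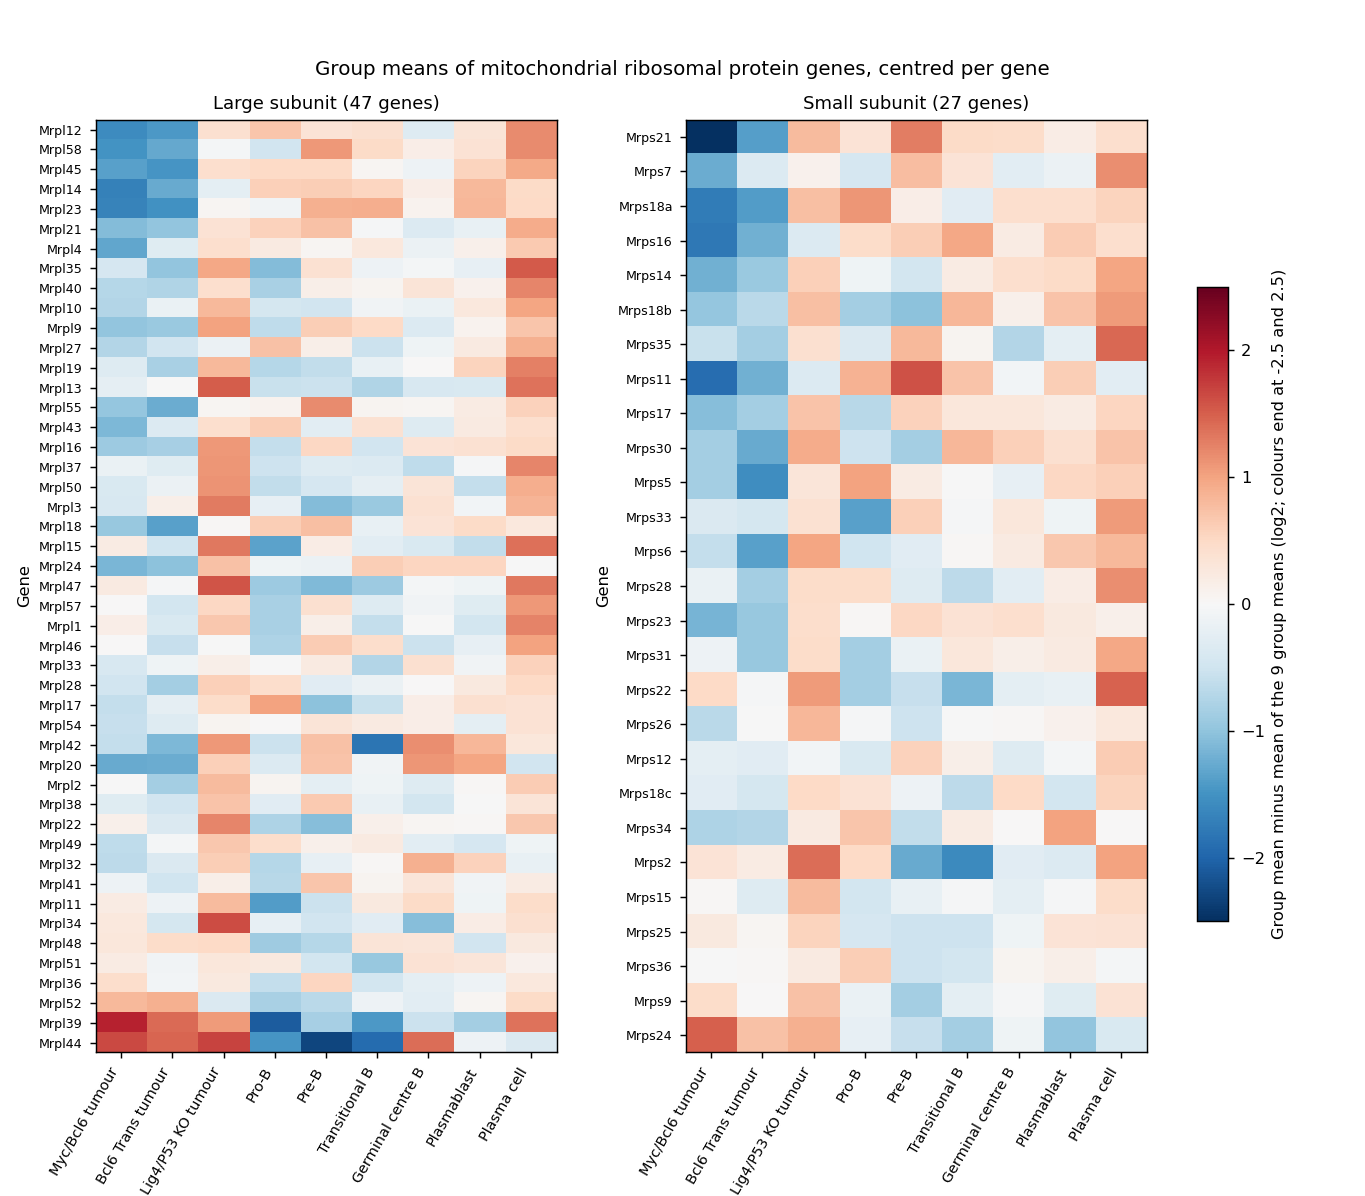
Group mean of each gene minus the mean of its 9 group means (log2), with genes in rows, groups in columns and genes ordered by plasma cells minus Myc/Bcl6 tumours. Most rows are blue in the left 2 columns and red in Lig4/P53 KO tumours and plasma cells. Mrpl44, Mrpl39 and Mrps24 at the bottom run the other way in the Myc/Bcl6 and Bcl6 Trans tumours, on the probe set used for each gene. Another probe set of each did not follow in these tumours.

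The smallest F-test p belonged to Mrpl44 (adjusted p = 1.27e-08) and Mrpl34 (adjusted p = 4.01e-07) and the largest to Mrps12 (adjusted p = 0.552) and Mrpl36 (adjusted p = 0.384), all from limma over the 9 groups. Mrps12 lies at the decoding centre of the small subunit, and its 9 group means ranged over 1.03 on the log2 scale, with 8.21 in plasma cells as the highest and 7.18 in pro-B cells as the lowest. Mrpl44 carries a fold related to RNase III, and its group means ranged over 3.99. Genes taken for their mean level over all arrays had their extremes in other groups as well. Mrpl24 averaged 10.35 ± 0.45 in Lig4/P53 KO tumours and 8.46 ± 0.27 in Myc/Bcl6 tumours, and Mrpl45, which tethers the ribosome to the inner membrane, 6.71 ± 0.37 in plasma cells and 4.30 ± 0.50 in Bcl6 Trans tumours. Mrpl14 averaged 6.63 ± 0.42 in plasmablasts and 4.12 ± 0.25 in Myc/Bcl6 tumours (SD). In the small subunit, Mrps11 averaged 8.08 ± 0.46 in pre-B cells and 4.59 ± 0.47 in Myc/Bcl6 tumours, Mrps5 6.50 ± 0.60 in pro-B cells and 3.96 ± 0.54 in Bcl6 Trans tumours, and Mrps15 9.98 ± 0.40 in Lig4/P53 KO tumours and 8.74 ± 1.76 in pro-B cells (SD).

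Promoters are shown for 4 genes that stood out in several comparisons and for 2 genes that share their promoter region with a neighbour. The RefSeq promoter table (GRCm38.p6) held 65 of the 74 genes, each with 250 bases before and 50 after its most upstream start. Printed are the 250 bases before the start of Mrpl44 (chr1:79775768-79776017, plus strand), Mrpl39 (chr16:84735245-84735494, minus strand), Mrps21 (chr3:95871515-95871764, minus strand) and Mrpl42 (chr10:95501950-95502199, minus strand), 5′ to 3′ on the gene's strand. Capitals mark matches to CCAAT, the box bound by NF-Y, on either strand and to the palindromic site of NRF1, a factor known for driving nuclear genes of mitochondrial proteins.
Mrpl44: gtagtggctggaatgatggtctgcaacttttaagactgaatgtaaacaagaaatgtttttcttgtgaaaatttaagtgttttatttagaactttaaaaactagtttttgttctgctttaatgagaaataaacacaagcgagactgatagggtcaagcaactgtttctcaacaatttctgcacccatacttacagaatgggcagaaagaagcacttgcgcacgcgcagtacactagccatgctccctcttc
Mrpl39: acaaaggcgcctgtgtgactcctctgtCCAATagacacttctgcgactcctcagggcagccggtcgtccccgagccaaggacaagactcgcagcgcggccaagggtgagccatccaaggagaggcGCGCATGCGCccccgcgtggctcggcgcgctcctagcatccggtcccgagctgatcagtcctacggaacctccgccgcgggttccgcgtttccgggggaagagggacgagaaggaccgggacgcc
Mrps21: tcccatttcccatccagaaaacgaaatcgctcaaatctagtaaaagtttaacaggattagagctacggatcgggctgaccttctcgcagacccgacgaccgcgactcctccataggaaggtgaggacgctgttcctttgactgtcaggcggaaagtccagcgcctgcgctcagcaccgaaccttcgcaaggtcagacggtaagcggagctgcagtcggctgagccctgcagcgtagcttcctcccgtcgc
Mrpl42: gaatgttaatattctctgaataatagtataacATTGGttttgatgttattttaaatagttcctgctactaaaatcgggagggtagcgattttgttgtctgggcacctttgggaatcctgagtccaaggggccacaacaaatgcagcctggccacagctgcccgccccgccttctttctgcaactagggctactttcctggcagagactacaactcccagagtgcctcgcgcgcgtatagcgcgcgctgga
The Mrpl39 window held CCAAT 223 bases and the NRF1 letters 125 bases before the start. In the Mrpl42 window CCAAT lay 218 bases before the start on the other strand, and the windows of Mrpl44 and Mrps21 held none of the motifs searched.

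Many of these genes start back to back with another gene. Of the 65, 17 (26.15%) had the start of a measured gene on the opposite strand at most 1000 bases upstream, beside 806 of 9885 measured genes (8.15%). Mrps11 and Mrpl46, of opposite subunits, start 42 bases apart, and Mrps12 starts 147 bases from Sars2, the mitochondrial seryl-tRNA synthetase. The bases between the starts are chr7:78783090-78783130, plus strand, for Mrps11 and chr7:28741822-28741967, minus strand, for Mrps12, with CCAAT in capitals.
Mrps11: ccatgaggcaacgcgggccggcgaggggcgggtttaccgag
Mrps12: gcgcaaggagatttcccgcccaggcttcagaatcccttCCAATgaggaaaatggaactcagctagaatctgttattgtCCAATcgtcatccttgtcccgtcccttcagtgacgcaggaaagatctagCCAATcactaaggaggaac
Mrps12 held CCAAT 108, 68 and 19 bases before its start. Other such neighbours were Ndufb5, a complex I subunit, 308 bases from Mrpl47, and Fau, a ribosomal protein of the cytosol, 192 bases from Mrpl49.

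Since the study's title names Yy1, the windows of 300 bases were also searched for AAGATGGCG, a form of its site, on both strands. It was found in 7 of 65 members (10.77%) and in 251 of 9885 measured genes (2.54%). Each match is given in capitals with the bases around it, on the gene's strand.
Mrpl35: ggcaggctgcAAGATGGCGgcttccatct
Mrpl37: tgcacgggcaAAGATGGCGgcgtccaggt
Mrpl42: agattgaagcAAGATGGCGagcgcgcggt
Mrps18a: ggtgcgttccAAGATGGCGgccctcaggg
Mrps24: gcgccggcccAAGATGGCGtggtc
Mrpl36: cgtgaccttaCGCCATCTTtcttcctggc
Mrps11: ctacgggcgcCGCCATCTTtctgtcttcc
In the first 5 the match starts 24, 27, 28, 12 and 37 bases into the transcript, and in Mrpl36 and Mrps11 it lies 31 and 108 bases before the start, as CGCCATCTT. The Mrps11 match lies past the start of its neighbour Mrpl46, inside that gene, and reads AAGATGGCG on its strand. In Myc/Bcl6 tumours against germinal centre B cells, Mrps18a, Mrps11 and Mrpl42 fell and Mrps24 rose, on the probe sets used. The other probe set of Mrps24 had 6.19 in the tumours and 7.02 in germinal centre B cells. Mrpl35, Mrpl36 and Mrpl37 had group means of 7.78, 7.86 and 5.87 in the tumours. In germinal centre B cells theirs were 8.15, 7.18 and 5.39. A part of Yy1 in these differences was not tested. The shares for the other motifs, members first, were 7.69% against 9.35% for CACGTG, the E-box of Myc and Max, 15.38% against 6.71% for CCGGAAGT, an ETS site, 4.62% against 1.61% for the NRF1 site and 38.46% against 38.26% for CCAAT. No motif searched contains another. A match is a description of letters, and binding was not measured in these files.

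Early steps in the bone marrow moved few of these genes. Between pre-B and pro-B cells 0 of 74 genes passed the test (limma, adjusted p under 0.05), beside 0.161% of all genes. An unadjusted p under 0.05 was reached by 12 of the 74, beside 1565 of all 12393 genes. The median log2 difference over the 74 genes was 0.15, beside 0.11 over all genes. Mrpl17, a homologue of a bacterial large subunit protein, was at 8.02, 4.43 and 7.61 in pre-B arrays and at 9.33, 8.50 and 8.29 in pro-B arrays, so the groups did not overlap (log2 difference -2.02 ± 0.59, SE; adjusted p = 0.182). Mrps36 was at 7.69, 6.34 and 7.73 in pre-B and at 8.59, 8.12 and 8.47 in pro-B cells (-1.14 ± 0.34, SE; adjusted p = 0.201). The lowest pre-B value of both genes came from array 2, of narrow spread. The median difference was -0.41 without pro-B array 1 and 0.60 without pre-B array 2, so its sign rests on single arrays.

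Mrpl42 was the gene that fell in splenic transitional B cells. It had 5.40, 5.83, 6.02 and 4.28 in transitional B cells, against 7.73, 8.16 and 7.91 in pre-B cells, and the groups did not overlap. The log2 difference was -2.55 ± 0.59 (SE), a 5.86-fold lower intensity (limma adjusted p = 0.0121). This was 1 of 74 genes called, beside 5.84% of all genes (2.91% lower). An unadjusted p under 0.05 was reached by 7 of the 74, a smaller share than the 2515 of all 12393 genes. The median over the 74 genes was -0.10, beside 0.04 over all genes, and 0.07 without pre-B array 3. The call held without each of the 7 arrays in turn (highest adjusted p = 0.0499). Mrpl42 is a protein of the mitochondrial large subunit with no bacterial counterpart. In the same step 10 of 19 mitosis, 3 of 6 erythroid and 11 of 11 granulocyte genes fell, with a per-array granulocyte median of 3.47 to 4.16 in transitional and 9.56 to 11.38 in pre-B cells. Their part in the result was not tested. Without pre-B array 2 and the 2 other arrays of narrow spread 5 genes fell and 0 rose. How many of all genes were called in that fit is not given here, so this count shows no change particular to the members.

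Germinal centre B cells had more Mrpl44 and Mrpl42 than transitional B cells. Mrpl44 was at 9.47, 9.42, 9.13, 9.08 and 9.05 in germinal centre B cells and at 5.39, 6.25, 5.07 and 6.90 in transitional B cells. The log2 difference was 3.33 ± 0.56 (SE), a 10.04-fold higher intensity (limma adjusted p = 0.000777). For Mrpl42 the values were 9.19, 8.86, 8.34, 7.90 and 7.61 in germinal centre B cells and those given above in transitional B cells, with a log2 difference of 3.00 ± 0.52 (SE; 7.99-fold, adjusted p = 0.000943). Neither gene's groups overlapped, and both calls held without each of the 9 arrays in turn.

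In all, 5 of 74 genes rose and 0 fell at this step, beside 13.5% of all genes called, 5.29% higher. The other 3 were Mrpl51, a protein found in mitochondrial ribosomes and not in bacterial ones (log2 difference 1.31 ± 0.43, SE; adjusted p = 0.045), and Mrps18c and Mrpl33, homologues of bacterial ribosomal proteins, at 1.15 and 1.13. Without any of 6 arrays (transitional array 1 or 2, or germinal centre array 1, 2, 3 or 4) 2 genes were called. The median difference was 0.04 over the 74 genes and -0.27 over all genes; after renewed quantile normalization of the arrays it was -0.11 over the 74 and -0.05 over all genes, with 3 genes higher and 1 lower. All germinal centre B cells were of strain B6 and all transitional B cells of strain 129. Pro-B cells were the only group with both strains, and a fit with strain as a term, which rests on those 3 arrays, gave Mrpl44 a log2 difference of 2.53 (adjusted p = 0.448), Mrpl42 one of 2.04 (adjusted p = 0.511) and 0 calls. The share of all genes called in these other fits is not given here. With all probe sets of a gene averaged, Mrpl51 had a difference of 0.06 (limma adjusted p = 0.911). In single arrays Mrpl44 was at 6.89 in the B6 pro-B array and at 5.74 and 6.43 in the 129 ones, and the B6 plasmablasts reached 6.83 to 8.63.

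Mrpl44 has 3 probe sets that did not behave alike, the other two with means of 7.72 and 7.76 over all arrays. The second had group means of 8.54 in germinal centre and 5.69 in transitional B cells, and its 9 group means correlated with the first's at r = 0.976. The third had 7.85 in germinal centre and 7.84 in transitional B cells (r = -0.46). Its lowest group means were 5.98 in Myc/Bcl6 and 5.96 in Bcl6 Trans tumours, where the first was high. Mrpl42 had 1 other probe set, with group means of at most 3.03. Markers of other cells were higher in the germinal centre arrays: 6 of 7 NK cell, 5 of 10 T-cell, 8 of 11 granulocyte and 7 of 13 macrophage genes rose. The median of the granulocyte list per array was 5.86 to 8.67 in germinal centre and 3.47 to 4.16 in transitional B cells, and that of the NK list 5.97 to 7.20 and 3.81 to 4.60. Mitosis genes also rose, 15 of 19, with medians of 6.57 to 8.09 in germinal centre and 4.93 to 6.30 in transitional B cells. Their part in the result was not tested.

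**Figure D3:**
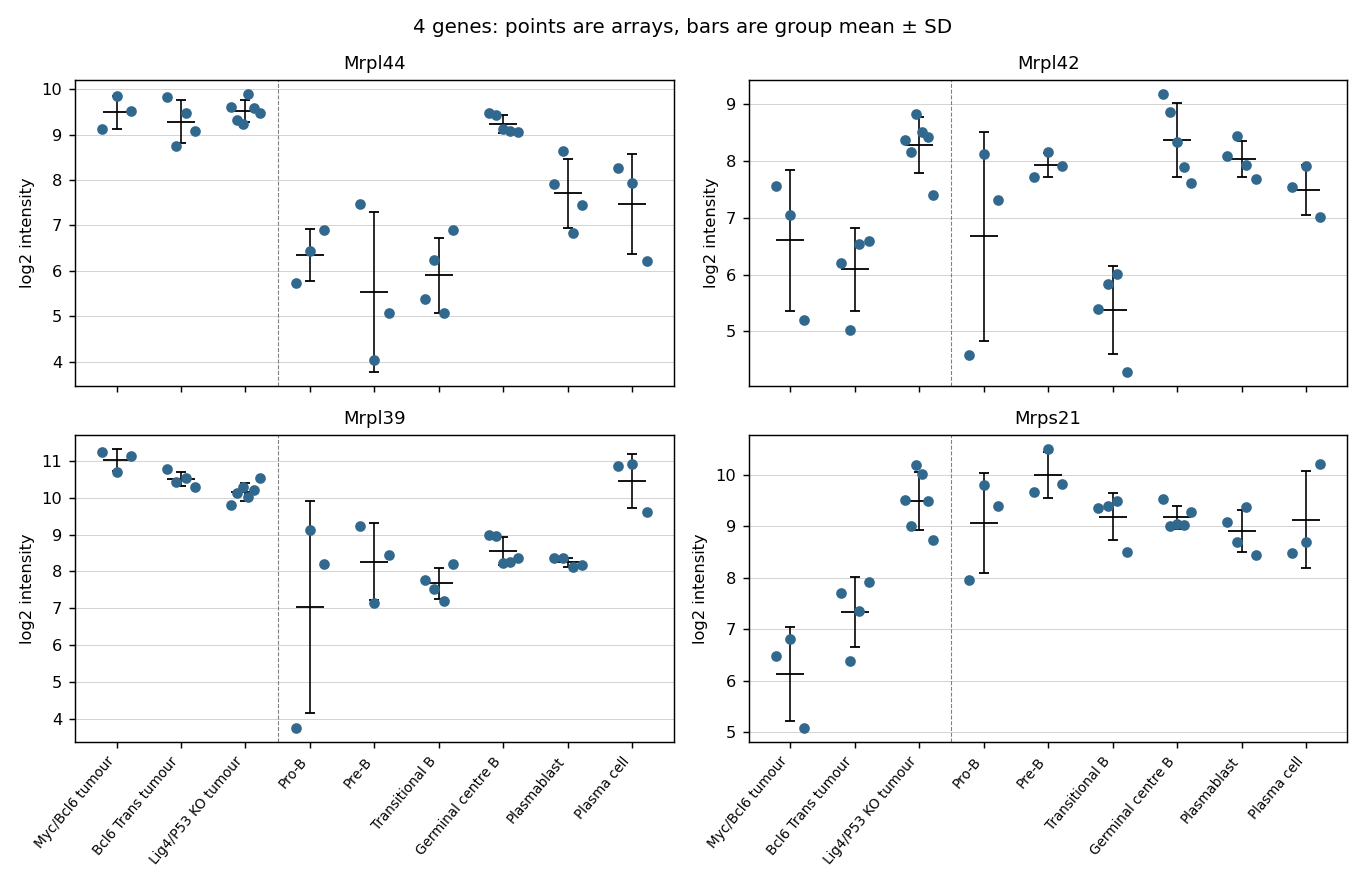
Log2 intensity of Mrpl44, Mrpl42, Mrpl39 and Mrps21 in every array by group, with mean ± SD. On the probe sets used, Mrpl44 lies at 8.74 or above in all tumour and germinal centre arrays and at 8.63 or below in every other array. Mrpl39 lies at 9.61 or above in all tumour and plasma cell arrays and at 9.22 or below in all others. Mrps21 has its lowest group mean in the Myc/Bcl6 tumours.

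Plasmablasts and germinal centre B cells differed in 0 of 74 genes, beside 0.678% of all genes called. An unadjusted p under 0.05 was reached by 8 of the 74, beside 1160 of all 12393 genes. The median log2 difference was 0.08, beside 0.05 over all genes. The nearest was Mrpl34, the homologue of a bacterial large subunit protein. It was at 6.82, 6.73, 6.70 and 6.64 in plasmablasts and at 5.86, 5.12, 5.34, 5.41 and 5.57 in germinal centre B cells, without overlap (log2 difference 1.26 ± 0.32, SE; adjusted p = 0.0649). Mrpl44 was at 7.92, 8.63, 6.83 and 7.44 in plasmablasts, below all germinal centre arrays (-1.53 ± 0.56, SE; adjusted p = 0.29). These fits take their spread from all 22 normal arrays. Fitted on these 2 groups alone 9 genes rose and 6 fell, and 1 rose and 1 fell without the 3 arrays of narrow spread. For these other fits the share of all genes called is not given here. NK cell genes fell in plasmablasts, 4 of 7, with medians of 4.42 to 6.25 in plasmablasts and 5.97 to 7.20 in germinal centre B cells, and T-cell genes, 3 of 10. All 19 mitosis genes had differences below 0 and 0 passed, with medians of 5.49 to 7.19 in plasmablasts and 6.57 to 8.09 in germinal centre B cells. Their part in these differences was not tested.

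Bone marrow plasma cells had more of 5 of the 74 mRNAs than plasmablasts, 4 of the large and 1 of the small subunit. The median log2 difference was 0.53 over the 74 genes (0.60 in the large and 0.36 in the small subunit), beside 0.22 over all genes. Of the 74 differences 59 were above 0, beside 8005 of 12393 over all genes. The 5 genes that rose, with 0 that fell, stand beside 14.3% of all genes called, 8.9% higher and 5.39% lower. The arrays of the groups did not overlap for 25 genes higher in plasma cells, beside 24.1% of all genes, and for 2 lower, beside 12.4%. The 25 were 20 of 47 large and 5 of 27 small subunit genes.

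The genes that rose were Mrpl1, Mrpl13, Mrps35, Mrpl50 and Mrpl21. Mrpl1, whose bacterial homologue forms the stalk beside the site where spent tRNA leaves, was at 8.53, 8.72 and 8.76 in plasma cells and at 6.57, 6.90, 7.44 and 6.92 in plasmablasts. Its log2 difference was 1.71 ± 0.40 (SE; 3.28-fold, limma adjusted p = 0.00556), and it alone stayed called without each array in turn, though not with its probe sets averaged (0.78, adjusted p = 0.0614). Mrpl13, a homologue of a bacterial large subunit protein, was at 11.04, 11.09 and 10.04 in plasma cells and at 9.29, 9.09, 9.27 and 8.33 in plasmablasts (1.73 ± 0.54, SE; adjusted p = 0.0334). Mrps35, a small subunit protein with no bacterial counterpart, was at 9.18, 9.18 and 9.84 in plasma cells and at 7.70, 7.63, 8.24 and 7.32 in plasmablasts (1.67 ± 0.46, SE; adjusted p = 0.016). Mrpl50, likewise without a bacterial counterpart, rose by 1.50 ± 0.39 (SE; adjusted p = 0.0121). No array of one group reached into the other for these 4 genes. The largest differences of all 74, Mrpl39 at 2.21 ± 0.79 (SE; adjusted p = 0.0682) and Mrpl15 at 1.99 ± 0.67 (SE; adjusted p = 0.0523), did not pass. These fits take their spread from all 22 normal arrays, among which pro-B array 1 had 3.75 for Mrpl39 and 4.44 for Mrpl15.

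Without plasmablast array 2 or 4, or plasma cell array 1 or 2, between 2 and 3 genes were called, with the share of all genes in those fits not given here. Without the 3 arrays of narrow spread 24 rose and 2 fell, beside 4029 genes called in all. Mrpl50's other probe set went the other way, with group means of 5.82 in plasma cells and 6.76 in plasmablasts, and with both averaged its difference was 0.28 (adjusted p = 0.77). Mrpl13 had 1.36 with its probe sets averaged (adjusted p = 0.1). The plasma cell arrays were not alike in their control probe sets. The 3'/5' gap was 4.59, 4.46 and 0.45, against 0.93 to 1.16 in plasmablasts, and 18S was 4.02, 4.21 and 7.38, against 10.19 to 10.86. With the 3'/5' gap as a term 9 genes rose and 0 fell, Mrpl13 not among them (limma adjusted p = 0.061). How many of all genes were called under that fit is not given here. Other lists moved too: 7 of 11 granulocyte, 4 of 13 macrophage, 3 of 7 NK cell, 3 of 6 erythroid and 5 of 9 B-cell genes fell and 5 of 19 mitosis genes rose. The per-array mitosis median was 7.84 to 8.60 in plasma cells and 5.49 to 7.19 in plasmablasts, and of the 7 plasma cell markers measured 0 rose and 1 fell. Their part in the result was not tested.

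**Figure D4:**
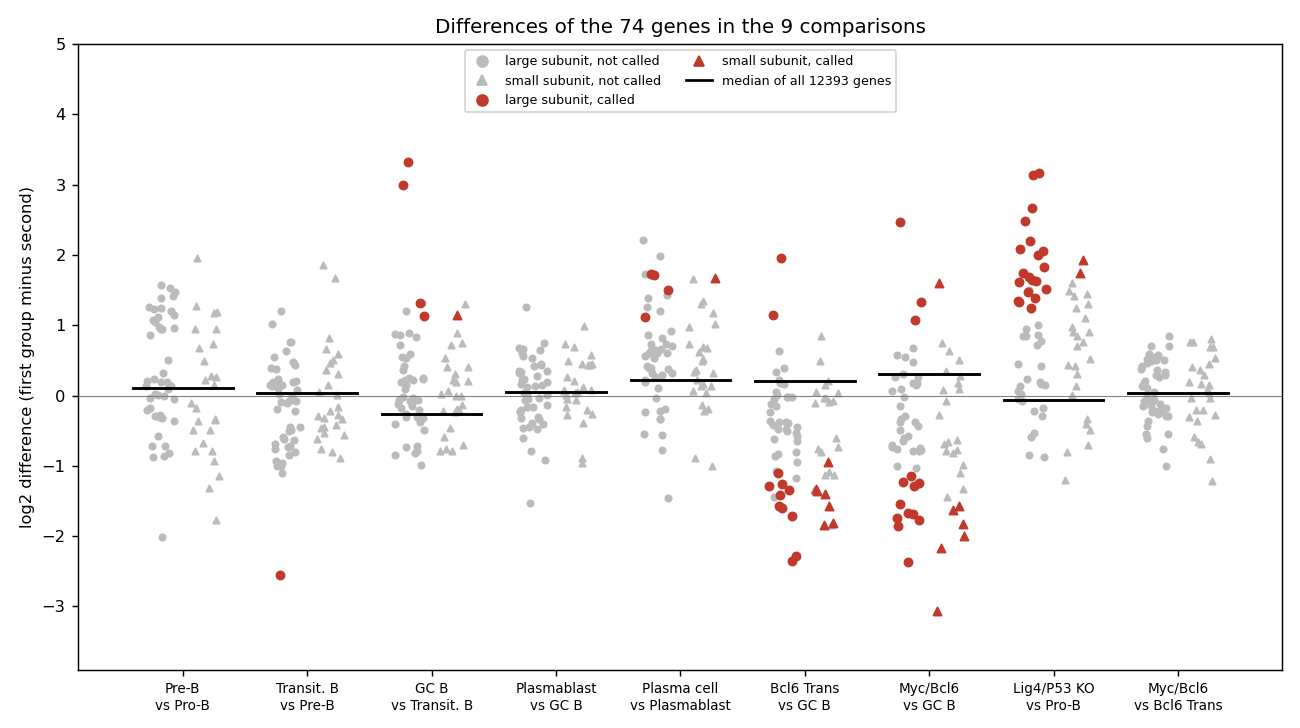
Log2 difference of each of the 74 genes in the 9 comparisons (first-named group minus second), with circles for large and triangles for small subunit genes, red for genes called at an adjusted p under 0.05 and a black bar for the median of all 12393 genes. Called genes lie above 0 in germinal centre versus transitional B cells, plasma cells versus plasmablasts and Lig4/P53 KO versus pro-B cells, and mostly below 0 in both Bcl6-related tumours versus germinal centre B cells.

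In Bcl6 Trans tumours 17 of 74 genes fell against germinal centre B cells and 2 rose. The median log2 difference was -0.52 (large subunit -0.47, small subunit -0.76), beside 0.21 over all genes. Of the 74 differences 58 were below 0, beside 5035 of 12393 over all genes. Of all genes 26.8% were called, 13.9% lower and 13.0% higher. With the 3'/5' gap as a term 0 members were called, with the share of all genes called in that fit not given here. In the large subunit 10 of 47 fell and 2 rose, and in the small subunit 7 of 27 fell and 0 rose. The genes that fell most were Mrpl20 (-2.35 ± 0.69, SE; adjusted p = 0.0108), Mrpl42 (-2.29 ± 0.52, SE; adjusted p = 0.0013), Mrps21 (-1.84 ± 0.41, SE; adjusted p = 0.00119) and Mrps18a (-1.81 ± 0.45, SE; adjusted p = 0.0033), with no overlap between the groups' arrays. Mrpl20, Mrps21 and Mrps18a are homologues of bacterial ribosomal proteins. Mrpl42, for one, was at 6.21, 5.02, 6.54 and 6.60 in the tumours, all under the lowest germinal centre array at 7.61. Mrpl39 rose by 1.95 ± 0.57 (SE; adjusted p = 0.0115) and Mrpl52 by 1.15 ± 0.35 (SE; adjusted p = 0.0157). Without Bcl6 Trans array 2 the call of Mrpl20 was lost (adjusted p = 0.0618).

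The tumours labelled Myc/Bcl6 differed from germinal centre B cells in the same direction on the median. The median log2 difference was -0.64 (large subunit -0.57, small subunit -0.70), beside 0.31 over all genes. Of the 74 differences 50 were below 0, beside 5197 of 12393 over all genes. By the test 17 genes fell and 4 rose, beside 48.1% of all genes called, 20.9% lower and 27.2% higher. The share of members that fell was thus near that of all genes, and the share that rose was below it. Mrps21 had the largest change: it was at 6.47, 6.81 and 5.08 in the tumours and at 9.53, 8.9999, 9.05, 9.02 and 9.28 in germinal centre B cells. Its log2 difference was -3.06 ± 0.45 (SE), an 8.34-fold lower intensity (limma adjusted p = 4.04e-06). Mrps16, the homologue of a bacterial small subunit protein, fell by 2.00 ± 0.37 (SE; adjusted p = 7.87e-05), Mrps18a fell by 2.17 ± 0.49 (SE; adjusted p = 0.000813) and Mrpl20 fell by 2.37 ± 0.75 (SE; adjusted p = 0.0109). Mrps11 and Mrpl42, whose windows hold the Yy1 letters, were at -1.83 and -1.77, both called. This comparison and that of the Bcl6 Trans tumours share the 5 germinal centre arrays, so their likeness is no independent support.

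The 4 genes that rose in the Myc/Bcl6 tumours were Mrpl39, Mrps24, Mrpl34 and Mrpl52. Mrpl39, a large subunit protein related to threonyl-tRNA synthetase, was at 11.25, 10.69 and 11.13 in the tumours and at 8.99, 8.96, 8.22, 8.25 and 8.36 in germinal centre B cells (2.47 ± 0.63, SE; 5.53-fold, adjusted p = 0.00214). Mrps24 was at 10.90, 9.29 and 9.91 in the tumours and at 7.89 to 8.93 in germinal centre B cells (1.60 ± 0.47, SE; adjusted p = 0.00651). Mrpl34 (1.33 ± 0.34, SE; adjusted p = 0.00256) and Mrpl52 (1.08 ± 0.38, SE; adjusted p = 0.0222) rose less. Without Myc/Bcl6 array 3 the calls of Mrpl52, Mrpl20 and Mrpl42 were lost (adjusted p = 0.125, 0.133 and 0.158), and without array 1 that of Mrps24 (0.0696). Each of these 4 genes has another probe set that did not follow the used one. For Mrpl39 its group means were 7.10 in Myc/Bcl6, 6.73 in Bcl6 Trans and 6.84 in germinal centre B cells. For Mrps24 they were 6.19, 6.30 and 7.02, and for Mrpl34 4.74, 4.44 and 4.73 in the same order. Mrpl52 has 3 others, with 8.58, 8.70 and 8.05, with 7.74, 7.94 and 7.61, and with 4.66, 5.71 and 5.75, so the brighter pair had higher means in both tumours than in germinal centre B cells and the dimmest had lower ones. With all probe sets of a gene averaged, 2 members rose and 16 fell in Myc/Bcl6 tumours and 0 rose and 19 fell in Bcl6 Trans tumours. The share of all genes called in that fit is not given here. Mrpl39 then rose in the Myc/Bcl6 tumours (1.36, limma adjusted p = 0.0438) and missed the threshold in the Bcl6 Trans tumours (0.92, adjusted p = 0.178).

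Control probe sets differed between the same groups, for a reason the labels do not give. The 3'/5' gap was 3.23 to 4.69 in Myc/Bcl6 and 3.65 to 4.60 in Bcl6 Trans tumours, against 0.68 to 1.55 in germinal centre B cells, and 18S was 4.14 to 4.65 in both tumours, against 10.04 to 11.13. With the 3'/5' gap as a term in the fit, 3 members rose and 5 fell in Myc/Bcl6 tumours, with a median difference of -0.07, and 0 were called in Bcl6 Trans tumours, with a median of -0.18. Mrps21 (-2.17, adjusted p = 0.00608), Mrps16 (-1.85, adjusted p = 0.0077), Mrpl39 (2.81, adjusted p = 0.0172) and Mrpl34 (1.70, adjusted p = 0.00809) stayed called in the Myc/Bcl6 tumours under that fit. Renewed quantile normalization brought the median over all genes to 0.10 and that of the members to -0.04 in Myc/Bcl6 tumours, with 7 members higher and 9 lower, and to 0.04 and -0.15 in Bcl6 Trans tumours, with 2 higher and 11 lower. Without Myc/Bcl6 array 3, 4 members rose and 9 fell with a median of -0.22, and without Bcl6 Trans array 2, 2 rose and 9 fell with a median of -0.34. The share of all genes called is not given here for any of these other fits, so their counts show no change particular to the members. B-cell markers fell in both tumours, 7 of 9 and 5 of 9 genes, with 1 that rose in each. Their per-array medians were 5.51 to 7.61 in Myc/Bcl6 and 7.57 to 9.32 in Bcl6 Trans tumours, against 9.65 to 10.999 in germinal centre B cells. Mitosis genes fell too, 9 of 19 and 6 of 19, with 1 that rose in each. NK cell genes fell, 6 of 7 in Myc/Bcl6 and 7 of 7 in Bcl6 Trans tumours, with medians of 4.01 to 5.48 and 4.15 to 4.92, against 5.97 to 7.20 in germinal centre B cells. T-cell genes fell, 6 of 10 and 3 of 10, and granulocyte genes, 5 of 11 in each. Of 13 macrophage and dendritic cell genes 3 rose and 1 fell in Myc/Bcl6 and 5 rose and 0 fell in Bcl6 Trans tumours. The part of these cell types in the result was not tested.

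Between the Myc/Bcl6 and Bcl6 Trans tumours 0 of 74 genes passed, beside 3.91% of all genes called. An unadjusted p under 0.05 was reached by 2 of the 74, a smaller share than the 2327 of all 12393 genes. The 2 members were Mrpl4, the homologue of a bacterial large subunit protein, and Mrps21. Mrpl4 was at 5.72, 5.86 and 5.25 in Myc/Bcl6 and at 7.15, 5.99, 6.60 and 6.69 in Bcl6 Trans tumours, without overlap (log2 difference -0.996 ± 0.298, SE; adjusted p = 0.052). Mrps21 was at 7.70, 6.38, 7.35 and 7.92 in Bcl6 Trans tumours, and array 2, of narrow spread, reached into the range of the Myc/Bcl6 tumours given above (-1.22 ± 0.47, SE; adjusted p = 0.133). Without the 3 arrays of narrow spread 7 genes fell and 0 rose, beside 3701 genes called in all, and with Myc/Bcl6 array 3 left out as well 5 rose and 2 fell, beside 3212, so the direction rests on that array.

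Lig4/P53 KO tumours had higher levels than pro-B cells, and this rested largely on pro-B array 1. With all arrays 22 of 74 genes rose and 0 fell, beside 21.1% of all genes called (13.2% higher, 7.91% lower), and the median log2 difference was 0.85, beside -0.07 over all genes. The large subunit held 20 of the 22 genes. The small subunit held Mrps22 and Mrps33. Without pro-B array 1, whose median over the 74 genes was 5.82, 6 genes (8.11%) rose, 1 (1.35%) fell and the median difference was 0.05. Beside them stand 5.75% of all genes called higher and 6.44% lower in that fit, with a median of -0.02. The number of differences above 0 was 59 of 74 with all arrays, beside 5847 of 12393 over all genes, and 39 of 74 without that array. Of the 74 genes 4 were called both ways. After renewed quantile normalization of all arrays 15 rose and 2 fell, with the share of all genes called in that fit not given here.

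The 4 genes were Mrpl44, Mrpl39, Mrpl34 and Mrpl50. Mrpl44 was at 9.60, 9.33, 9.23, 9.90, 9.58 and 9.47 in the tumours and at 5.74, 6.43 and 6.89 in pro-B cells. Its log2 difference was 3.17 ± 0.51 (SE; 8.97-fold, limma adjusted p = 4.77e-05), and 2.86 ± 0.58 without pro-B array 1 (adjusted p = 0.00107). Mrpl39 was at 9.81, 10.12, 10.30, 10.01, 10.22 and 10.53 in the tumours and at 3.75, 9.13 and 8.21 in pro-B cells, a log2 difference of 3.14 ± 0.61 with all arrays and 1.49 ± 0.39 without array 1 (SE; adjusted p = 0.000379 and 0.00994). Mrpl34 was higher by 1.83 ± 0.33 with all arrays and 1.60 ± 0.37 without array 1, and Mrpl50 by 1.75 ± 0.36 and 1.44 ± 0.39 (SE). The third probe set of Mrpl44 had group means of 8.34 in the tumours and 8.43 in pro-B cells, and the other probe set of Mrpl50 had 6.16 in the tumours and 6.42 in pro-B cells.

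Mrpl15 and Mrpl47, both homologues of bacterial large subunit proteins, lost their calls without that array. Mrpl15 was at 9.43 to 10.32 in the tumours and at 4.44, 8.73 and 8.28 in pro-B cells, a log2 difference of 2.67 ± 0.61 with all arrays and 1.32 ± 0.52 without array 1 (SE; adjusted p = 0.00196 and 0.0998). Mrpl47 was at 9.82 to 10.35 in the tumours and at 5.20, 8.46 and 8.87 in pro-B cells (2.48 ± 0.62 and 1.33 ± 0.59, SE; adjusted p = 0.00417 and 0.16). Mrps24 and Mrps2 rose and Mrps11 fell only in the fit without the array, at 1.79, 1.59 and -1.91, and these 3 are named because they were its other calls. Granulocyte genes fell, 10 of 11, with per-array medians of 3.98 to 6.28 in the tumours and 9.81 to 10.80 in pro-B cells, and NK genes fell, 7 of 7, with 3.25 to 4.99 in the tumours and 4.98 to 6.83 in pro-B cells. T-cell genes fell, 6 of 10, and erythroid genes, 3 of 6. The 3'/5' gap was 2.25 to 3.64 in the tumours and 0.93 to 2.95 in pro-B cells, and 18S was 4.15 to 6.15 in the tumours and 10.82 to 11.28 in pro-B cells, without overlap. Their part in the result was not tested.

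**Figure D5:**
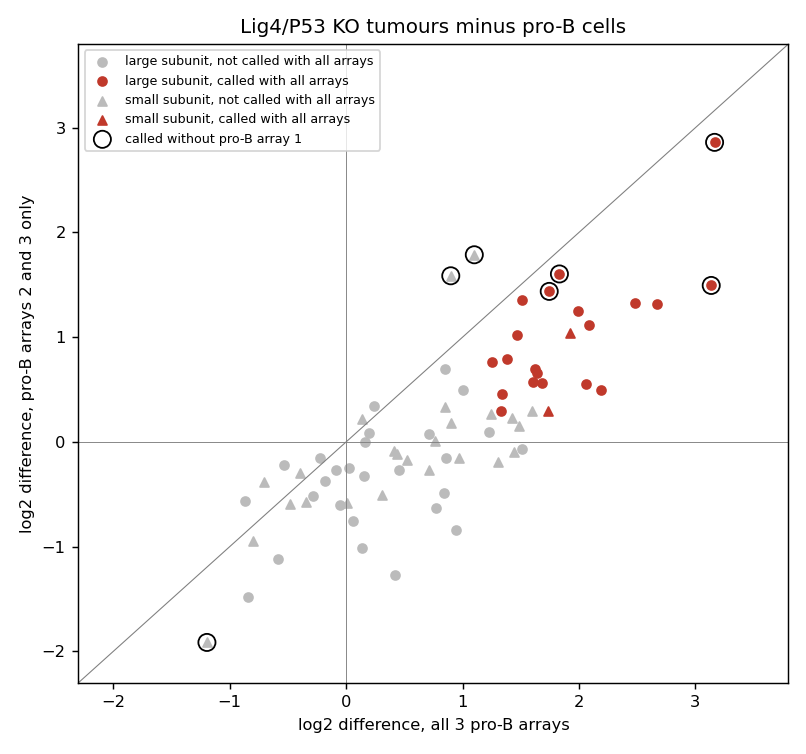
Log2 difference of Lig4/P53 KO tumours minus pro-B cells for each of the 74 genes, with all 3 pro-B arrays (horizontal) and with pro-B arrays 2 and 3 only (vertical); red marks genes called with all arrays, rings mark the 7 called without array 1 and the diagonal marks equality. 65 of the 74 points lie below the diagonal, and Mrpl44 stays near it at 3.17 and 2.86.

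Other parts of the mitochondrial translation machinery were set beside the members. Of 23 measured translation and assembly factors, 10 rose and 0 fell in Lig4/P53 KO tumours against pro-B cells, among them Mtif2, the initiation factor, Gfm1, an elongation factor, and Mtg1, a GTPase of ribosome assembly. Of 8 mitochondrial tRNA synthetases 5 rose, and of 10 genes of mitochondrial DNA replication and transcription 6 did, among them Polrmt, the RNA polymerase. Of 4 mitochondrial ribosomal proteins with other symbols Ptcd3, Chchd1 and Dap3 rose. These stand beside 13.2% of all genes called higher, and they include pro-B array 1. Without that array 3 of the 23 factors rose, Mtg1, Mtfmt and Mtif2, and 3 of the 8 synthetases, 1 of the 10 replication and transcription genes and 1 of the 4 proteins (Ptcd3), beside 5.75% of all genes called higher. In plasma cells against plasmablasts 3 of the 23 factors rose, Mtg1, Lrpprc and Slirp, and 2 of the 4 proteins with other symbols, Gadd45gip1 and Ptcd3. Their median log2 differences there were 0.64 and 1.01, beside 0.53 for the 74 genes and 0.22 for all genes. In Bcl6 Trans tumours against germinal centre B cells 0 of the 23 factors rose and 3 fell with a median of 0.05, beside -0.52 for the 74 genes. In Myc/Bcl6 tumours 1 rose and 5 fell with a median of 0.12.

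Cytosolic ribosomal proteins and oxidative phosphorylation subunits are the lists most like the members in function. Of 42 cytosolic ribosomal proteins 27 fell and 1 rose in Myc/Bcl6 tumours and 21 fell and 1 rose in Bcl6 Trans tumours against germinal centre B cells, with median log2 differences of -1.14 and -0.82. In Lig4/P53 KO tumours against pro-B cells 14 of them rose and 0 fell with all arrays, and 5 rose and 1 fell without pro-B array 1, whose median over the list was 10.39, against 12.37 and 12.34 in the other pro-B arrays. In plasma cells against plasmablasts 3 fell and 0 rose, with a median of -0.02, where the mitochondrial ribosomal proteins had 0.53. Of 68 oxidative phosphorylation subunits 7 rose and 1 fell at that step, with a median of 0.47. These subunits split in the tumours: 13 rose and 17 fell in each of the Myc/Bcl6 and Bcl6 Trans tumours, with medians of -0.43 and -0.42, and 15 rose and 2 fell in Lig4/P53 KO tumours with all arrays, and 8 rose and 3 fell without pro-B array 1. Differences between the lists were not tested.

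Probe sets of one gene were often at odds. The 74 genes had 127 probe sets, and 33 genes had several. Of 53 pairs of the used and another probe set, 21 had group means that correlated below 0 over the 9 groups, in 19 genes, and in 13 of these the other probe set averaged under 5. Of 15 pairs whose other probe set averaged over 7, 11 had r over 0.5, with a median r of 0.739. The 9 group means come from the same 35 arrays, so these correlations are a description. Probe sets that moved the same way could still differ in size, as for Mrpl13 and its second probe set (r = 0.694). In Bcl6 Trans tumours, Myc/Bcl6 tumours and germinal centre B cells its used probe set had group means of 9.37, 9.15 and 8.98. The second had 10.17, 10.36 and 8.65.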

How the data were processed

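The values were deposited by the authors as 1 table of log2 probe set intensities for 35 arrays, made with RMA per the submitters' processing notes, which give no version. Per the labels' protocols, RNA was isolated with Tripure, amplified with NuGen Ovation V2 and biotin labelled. The array medians over all genes ran from 4.93 to 5.69 and the spreads differed too, so the deposited arrays do not share 1 distribution. The number of arrays limits the precision. Of 22690 probe sets, 64 were controls, 20380 had 1 symbol in the platform annotation, 691 several and 1555 none. Each gene was read from its probe set of highest mean, giving 12393 genes with no filter on low values.

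Groups came from the titles. Differences were tested with limma 3.58.1 (lmFit and eBayes, R 4.3.3) with Benjamini-Hochberg adjustment over all genes and a threshold of 0.05. Stage comparisons were fitted on the 22 normal arrays and tumour comparisons on all 35. The procedure was tested on simulated data. Replicate numbers are not labelled as shared mice, and deviations of same-numbered arrays had a median correlation of 0.001 over 119 pairs, so no block was used. The genes named were, per comparison, up to 4 called members of largest increase and up to 4 of largest decrease whose arrays did not overlap, or the 2 of smallest p where none was called; the extremes of mean level and of the F-test; members whose probe sets disagree; and up to 3 called genes of the other lists. Members and lists were chosen with earlier results of these data known. Promoters came from RefSeq (GRCm38.p6). Tables used Python 3.11.15 with numpy 2.4.6 and pandas 2.3.3, and figures matplotlib 3.10.9. Settings tried besides were averaging a gene's probe sets, dropping dim genes, quantile normalizing again, equal array medians, a trended robust prior, array weights, each pair of groups alone, a replicate block, the 3'/5' gap or strain as a term, leaving out arrays of narrow spread, and leaving out each array.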

Additional observations from a re-analysis of the deposited data

Results flagged for a closer look

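Of 150 checks of 1 array against the rest of its group, 10 had a gap to the nearest other array that was large relative to the group's range by Dixon's test, and chance gives about 1 in 20. Plasmablast array 4 was low for the large subunit median (7.49, others 7.79), the small subunit median (7.52, others 8.05 to 8.06) and Mrpl20 (7.57, others 8.37 to 8.54). Transitional array 4 was low for Mrpl47 (6.36, others 7.79 to 8.02) and Mrps21 (8.5, others 9.36 to 9.5). Germinal centre array 4 was high for Mrpl52 (10.33, others 10.1 to 10.12) and low for Mrps11 (5.66, others 6.52 to 6.72), and germinal centre array 5 was high for Mrps35 (7.67, others 7.04 to 7.18). Bcl6 Trans array 2, of narrow spread, was low for Mrpl15 (6.53, others 8.27 to 8.61), and Lig4/P53 KO array 3 was high for Mrps24 (10.1, others 9.16 to 9.41). Groups of 3 arrays, among them pro-B cells, are too small for this check.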

How the results depend on the processing

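The count of genes varying over the 9 groups stayed within 1.5 times of 52 in all 45 alternatives, and of 505 alternative values of single genes 456 kept their side of the threshold, 49 lost it and 0 turned round. Counts of called members moved most with the spread used. The calls over all genes under each setting are not set beside these counts, so the counts show no change particular to the members. With array weights they were 8 (transitional against pre-B), 22 (germinal centre against transitional), 19 (plasmablast against germinal centre) and 36 (plasma cell against plasmablast). With each pair of groups alone the last 3 were 22, 15 and 23, Bcl6 Trans against germinal centre gave 30 and Lig4/P53 KO against pro-B 12. Without the 3 arrays of narrow spread the stage counts in that order were 5, 22, 2 and 26, and also without Myc/Bcl6 array 3, an alternative chosen after seeing the data; Myc/Bcl6 against germinal centre gave 35 without the 3, and against Bcl6 Trans 7 either way. With the 3'/5' gap as a term counts were 2 (transitional), 8 (germinal centre), 9 (plasma cell), 0 (Bcl6 Trans) and 8 (Myc/Bcl6 against germinal centre). Germinal centre against transitional gave 2 without dim genes, 2 with the trended prior and 0 with strain as a term. Equal medians gave 1 in plasmablasts, and the mean of all probe sets 1 between Myc/Bcl6 and Bcl6 Trans. The replicate block gave 2 calls in germinal centre against transitional and 3 in plasma cells against plasmablasts and kept every other count within 1.5 times. Leaving out 1 array gave 0 to 1 (pre-B), 2 to 4 (germinal centre), 2 to 5 (plasma cell), 11 to 19 (Bcl6 Trans), 13 to 23 (Myc/Bcl6), 7 to 35 (Lig4/P53 KO) and 0 to 2 (Myc/Bcl6 against Bcl6 Trans). The cause of these moves was not tested. Group medians moved by more than the SD between arrays in 15 of 130 cases. With the mean of all probe sets the large subunit had 6.33 (Myc/Bcl6), 6.45 (Bcl6 Trans), 7.38 (Lig4/P53 KO), 7.08 (pre-B), 6.75 (transitional), 6.905 (germinal centre), 7.03 (plasmablast) and 7.42 (plasma cell), and the small 8.11 (Lig4/P53 KO), 7.50 (transitional), 7.57 (plasmablast) and 8.11 (plasma cell). Renewed quantile normalization gave 8.15 (large, plasma cell) and 8.08 (small, Lig4/P53 KO), and equal medians 8.23 (large, plasma cell).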
